A study of Drosophila melanogaster with 6 samples.

Results

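The Egfr ligands, their processing factors, the receptor, its nuclear effector and its feedback inhibitors were followed in midguts of Drosophila that lack *Apc1*. The 10 genes were *vn*, *spi*, *Krn*, *rho*, *S*, *Egfr*, *pnt*, *aos*, *sty* and *kek1*, taken as a list by symbol, and the symbols matched 9 of the 10. The deposited table carries *aos* under the name argos, and it was found through its RefSeq accession, as was an additional *pnt* probe set that the table lists as CG31340. In all, 12 of the 18769 probe sets tested carry only accessions of these genes. On these arrays a gene is read by 1 or more probe sets, each made of several short probes. A further probe set that the table labels with both *ATPsyn-Cf6* and *pnt* carries an accession of *ATPsynCF6* alone, a subunit of the mitochondrial ATP synthase, and is described apart.

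Whole midguts of adult females, 7 days old, were pooled within each sample and hybridized to Affymetrix Drosophila 2.0 arrays, with 3 samples of *Apc1* mutants and 3 of wild type. The mutants carry *Apc1*Q8, described as a null allele, in the whole animal and not in a chosen cell type. The design text names w1118 as the wild-type strain and the methods of the study name Canton S, and strain and genotype therefore cannot be told apart here. Neither group received a treatment. Nothing given with the samples says whether they came from separate cultures, so p-values measure the spread between these samples only.

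Values are on the log2 scale as deposited, and the methods of the study give RMA (robust multi-array average) as their normalization. The processing notes name MAS5 beside RMA, and the lowest value of an array was 0.53 to 0.67, so how low signals were corrected for background stays unknown and the size of folds at the low end depends on it. The median of an array was 2.54 to 2.60 and its upper quartile 5.30 to 5.46. The transcript of the mutated gene, listed as *Apc*, read 6.41, 6.13 and 6.94 in *Apc1* mutants, against 6.55, 5.89 and 6.63 in wild type, so it did not separate the genotypes (difference 0.14, standard error 0.26, limma adjusted p = 0.795). The sign of this difference turned without *Apc1* mutant replicate 3 (-0.09) or wild type replicate 2 (-0.10). A null allele need not change the level of its own transcript, so loss of *Apc1* function cannot be read from these values. Trypsin transcript of enterocytes (*alphaTry*) was abundant on all 6 arrays, between 11.41 and 12.10.

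The Drosophila Egfr is a receptor tyrosine kinase that signals through Ras and MAP kinase to the Ets factor Pointed. Spitz and Keren are made as membrane-bound precursors, which the cargo receptor Star carries to the intramembrane protease Rhomboid for cleavage, whereas Vein is secreted without such cleavage. The pathway restrains itself: Argos sequesters Spitz outside the cell, Kekkon-1 binds the receptor, and Sprouty acts inside the cell on the Ras branch. In the adult midgut, ligands come from visceral muscle (Vein) and from the epithelium (Spitz and Keren), and the pathway is known for driving division of intestinal stem cells.

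Of the 12 probe sets, 11 had a higher mean in midguts of *Apc1* mutants and 1 (*kek1*) had a lower one. By limma with Benjamini-Hochberg adjustment over all probe sets, 5 of the 12 were higher at an adjusted p under 0.05, beside 6.82% of all probe sets, and 0 were lower, beside 4.22%. The 5 belong to 4 genes, *aos*, *pnt*, *spi* and *vn*. At an unadjusted p under 0.05, 8 of the 12 were higher, beside 14.6% of all probe sets. The values of the genotypes did not overlap in 9 probe sets, all higher in mutants, beside 17.2% of all probe sets; in 0 were the mutants lower without overlap, beside 14.2%. The median difference of the 12 was 0.71 on the log2 scale, beside -0.02 for all probe sets. The 5302 probe sets with a mean of at least 5 over the arrays were also fitted and adjusted by themselves. Of the 5 members among them, 4 were higher, beside 19.8% of these probe sets. *S* and the brighter probe set of *sty* were thereby added to *spi* and the brighter probe set of *pnt*. The study had already followed up the 2 ligands called by quantitative RT-PCR on separately extracted midgut RNA, with heterozygous *Apc1*Q8 controls, and reported both as increased. The count here is therefore a description and not independent evidence of a direction.

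**Figure D1:**
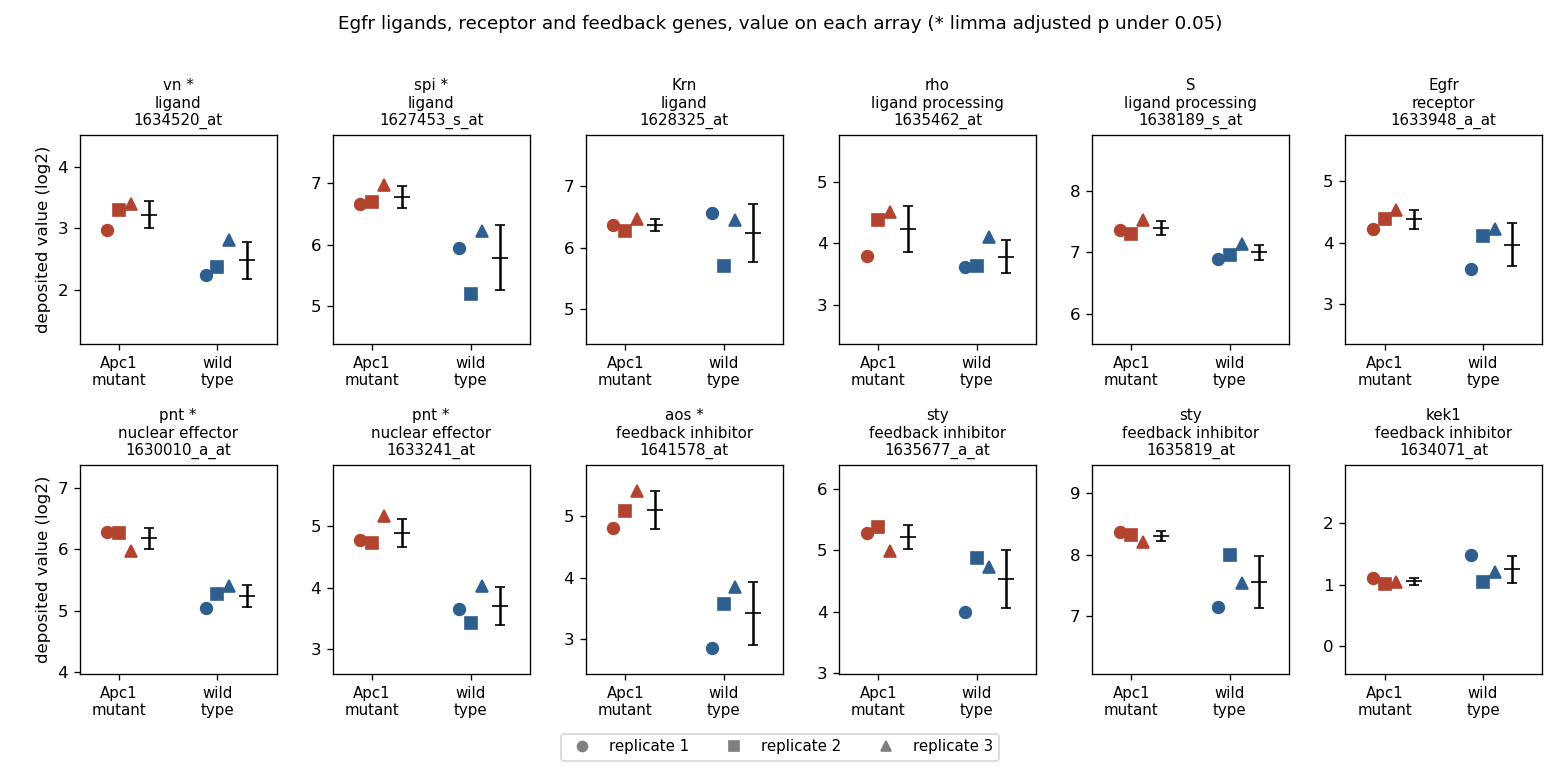
Deposited log2 value of each of the 12 probe sets on each array, with *Apc1* mutants (red) left of wild type (blue) in every panel. Each vertical axis spans the same log2 range, symbols mark the replicate number, and the bar shows the mean ± SD of 3 arrays; an asterisk marks a limma adjusted p under 0.05. In 9 panels all red points lie above all blue points, and *Krn*, *rho* and *kek1* are the panels in which they overlap.

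Among the ligands, *spi* and *vn* passed the threshold as higher in *Apc1* mutants and *Krn* did not. *spi*, which encodes an epithelial ligand of the receptor, read 6.66, 6.69 and 6.98 in *Apc1* mutants, against 5.95, 5.19 and 6.22 in wild type. The mutant arrays lay close together and above all wild-type arrays, among which replicate 2 was low by itself. The difference was 0.99 with a standard error of 0.26, a fold of 1.99 (limma adjusted p = 0.0495). *vn*, the neuregulin-like ligand, read 2.98, 3.30 and 3.39 in mutants, against 2.25, 2.37 and 2.81 in wild type. All these values lie near the array medians, and the smallest gap between the genotypes was 0.16. The difference was 0.75 with a standard error of 0.18, a fold of 1.68 (limma adjusted p = 0.0431). Neither margin was wide. With 1 array left out in turn, *vn* passed in 1 of the 6 fits, the one without wild type replicate 3. *spi* passed in 2, those without wild type replicate 2 or 3. The limma adjusted p ranged from 0.0227 to 0.144 for *vn* and from 0.0324 to 0.161 for *spi*. The difference ranged from 0.63 to 0.91 for *vn* and from 0.69 to 1.21 for *spi*. The lowest difference of *spi*, 0.69, came without its low array, wild type replicate 2.

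*Krn*, a close relative of *spi*, read 6.38, 6.27 and 6.46 in *Apc1* mutants and 6.57, 5.71 and 6.46 in wild type. The mutant values fell inside the wild-type range, and its difference of 0.13 had a 95% interval from -0.40 to 0.65 (limma adjusted p = 0.78). A moderate increase lies inside this interval. It overlaps the interval of *spi*, from 0.39 to 1.59, and the differences of *spi* and *Krn* were not tested against each other. As with *spi*, wild type replicate 2 was the low array. Without it the difference of *Krn* was -0.14 (adjusted p = 0.558). That array was also the highest of the 6 in 5 of 6 probe sets of the Malpighian tubule list. The summed linear level of these markers was between 109 and 201 in mutants, against 391 on that array and 133 and 152 on the other wild-type arrays. Of the 6 probe sets, 2 that belong to the gene *List* read under 3 on all arrays. For *Uro* wild type replicate 2 stood well apart (5.86, 5.72 and 6.93 in mutants, against 6.10, 7.79 and 5.94 in wild type). For *Best2* it did not, since *Apc1* mutant replicate 2 came close to it (4.61, 5.68 and 4.45 in mutants, against 4.25, 5.93 and 4.78 in wild type). The part of tubule transcript in the ligand values was not tested.

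The genes for ligand processing had smaller positive differences that did not pass the threshold. *S* encodes Star, and read 7.36, 7.30 and 7.52 in *Apc1* mutants, against 6.90, 6.96 and 7.14 in wild type. Both groups were tight (SD 0.12 and 0.13, n = 3 each) and did not overlap, and the difference was 0.39 (standard error 0.12, limma adjusted p = 0.0881). It passed only where probe sets with a mean under 5 were left out (adjusted p = 0.0397). *rho*, the protease gene whose transcription usually limits Spitz release in development, read 3.80, 4.38 and 4.51 in mutants and 3.62, 3.63 and 4.10 in wild type. *Apc1* mutant replicate 1 lay below wild type replicate 3, so the groups overlapped, and the difference of 0.45 had a 95% interval from -0.07 to 0.96 (limma adjusted p = 0.26).

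The receptor gene itself did not pass the threshold. *Egfr* read 4.23, 4.38 and 4.54 in *Apc1* mutants, against 3.56, 4.11 and 4.23 in wild type. The lowest mutant array and the highest wild-type array were nearly equal. The difference of 0.41 (standard error 0.19) had a 95% interval from -0.03 to 0.86 (limma adjusted p = 0.231), and it passed in none of the settings tried.

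The nuclear effector *pnt* was higher in both of its probe sets. *pnt* encodes an Ets transcription factor that is activated by MAP kinase and whose transcription is itself raised by the pathway. Its brighter probe set read 6.29, 6.27 and 5.98 in *Apc1* mutants, against 5.05, 5.27 and 5.40 in wild type, and the genotypes were 0.58 apart at their closest. The difference was 0.94 with a standard error of 0.14, a fold of 1.92 (limma adjusted p = 0.00648). The probe set listed as CG31340 read 4.78, 4.73 and 5.16 in mutants, against 3.65, 3.43 and 4.03 in wild type, which is 1.19 apart (standard error 0.19, fold 2.28, limma adjusted p = 0.0079). Both carry the same accessions, so they are 2 readings of 1 gene and not 2 members. Their replicate order differed: *Apc1* mutant replicate 3 was the lowest mutant array in the brighter probe set and the highest in the dimmer. Both passed in all 6 fits with 1 array left out, with an adjusted p of at most 0.0352. The probe set labelled with both *ATPsyn-Cf6* and *pnt* went the other way, at 8.97, 8.68 and 8.68 in mutants, against 9.42, 9.29 and 9.41 in wild type (difference -0.60, limma adjusted p = 0.024). By its accession it reports *ATPsynCF6* and not *pnt*.

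Of the 3 feedback inhibitors, *aos* had the largest difference of all 12 probe sets, *sty* was above wild type on every mutant array without passing, and *kek1* gave no reading above the low end. *aos* encodes Argos, the secreted inhibitor that binds Spitz, and it is a standard transcriptional readout of Egfr activity in other Drosophila tissues. It read 4.81, 5.09 and 5.41 in *Apc1* mutants, against 2.85, 3.57 and 3.85 in wild type. The lowest mutant array was 0.96 above the highest wild-type array. The difference was 1.68 with a standard error of 0.27, a 95% interval from 1.05 to 2.31 and a fold of 3.21 (limma adjusted p = 0.00819). It passed in every fit with 1 array left out, with adjusted p between 0.0104 and 0.0409. The wild-type values lie between the array median and the upper quartile, where the size of a fold still depends on the background correction.

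*sty* encodes Sprouty and has 2 probe sets with the same accessions. The brighter read 8.37, 8.33 and 8.21 in *Apc1* mutants, against 7.15, 8.0 and 7.54 in wild type. The mutant arrays agreed closely (SD 0.08, n = 3) and the wild-type arrays did not (SD 0.43, n = 3). The difference was 0.74 with a standard error of 0.21, a fold of 1.67, and missed the threshold (limma adjusted p = 0.0646). Leaving out wild type replicate 2 brought it past the threshold (adjusted p = 0.0132), as did fits with the dim probe sets left out (0.0391), with trend and robust estimation (0.0442) and with array weights (0.0442). The dimmer probe set read 5.28, 5.37 and 4.99 in mutants, against 4.0, 4.87 and 4.73 in wild type, with a similar difference of 0.68 (limma adjusted p = 0.121). *kek1*, a transmembrane inhibitor and feedback target of the pathway in the ovary, read 1.12, 1.01 and 1.05 in mutants and 1.49, 1.05 and 1.21 in wild type. All 6 values lie well under the array medians, and the difference was -0.19 (limma adjusted p = 0.446).

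**Figure D2:**
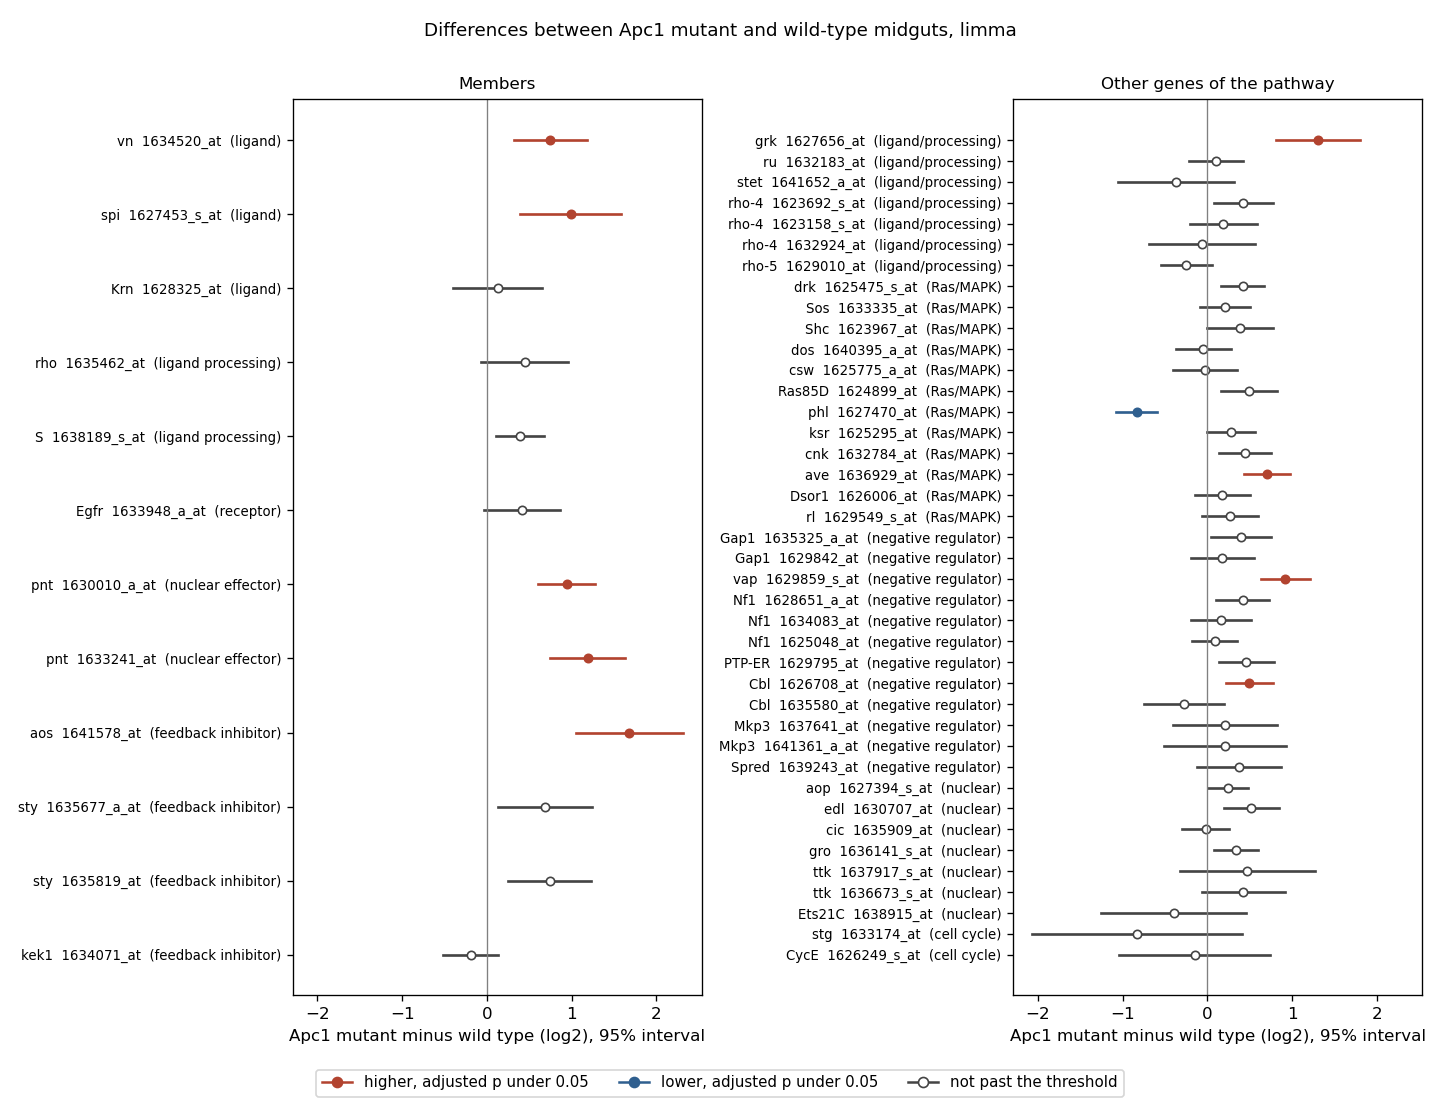
Difference between *Apc1* mutant and wild-type midguts on the log2 scale with its 95% interval from limma, for the 12 probe sets of the members (left) and 40 probe sets of other genes of the pathway (right); filled points passed an adjusted p under 0.05. Most members lie right of 0, with *aos* at 1.68 the farthest, whereas most other genes of the pathway lie within 0.5 of 0.

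The spread of the members was larger in wild type. The mutant SD was below the wild-type SD in 11 of the 12 probe sets, and in 60.2% of all probe sets. The median SD of the members was 0.17 in *Apc1* mutants and 0.33 in wild type, beside 0.14 in mutants and 0.18 in wild type over all probe sets. Within the mutants, replicate 3 was the highest array in 8 of the 12 members and in 34.2% of all probe sets. Within wild type, replicate 1 was the lowest array in 8 members and in 32.1% of all probe sets, and replicate 3 was the highest in 8 members and in 33.0% of all probe sets. Several members were therefore low or high on the same array.

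**Figure D3:**
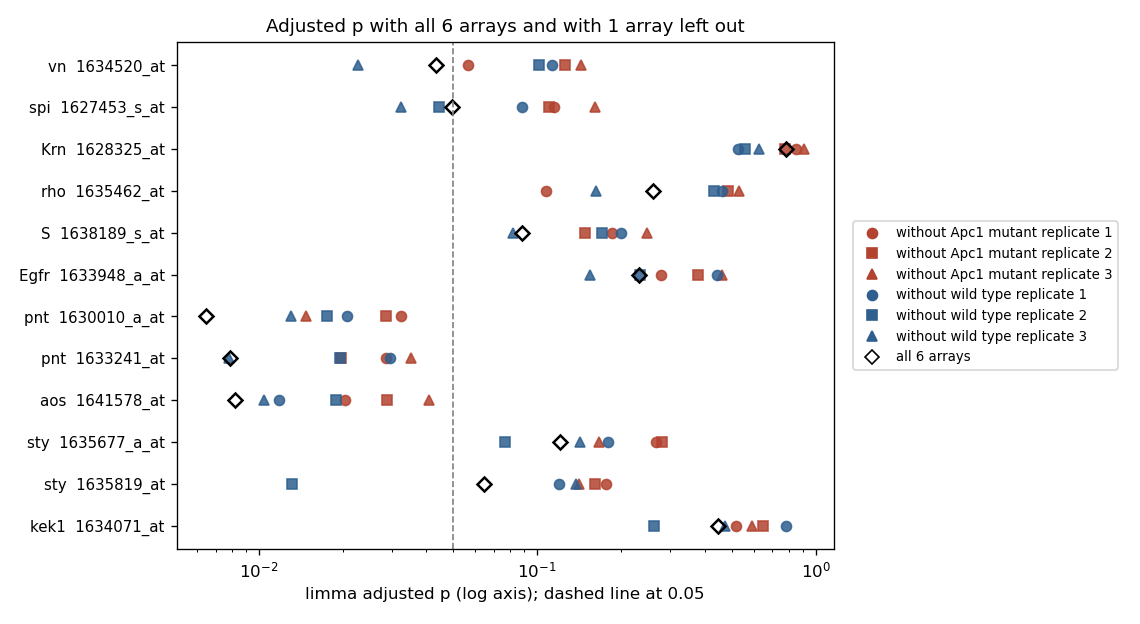
limma adjusted p on a log axis for each of the 12 probe sets, with all 6 arrays (open diamonds) and with 1 array left out (red for *Apc1* mutant arrays, blue for wild-type arrays, symbol by replicate number). Both probe sets of *pnt* and that of *aos* stay left of the dashed line at 0.05 in all 6 fits, whereas *vn* and *spi* lie on both sides of it.

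The rest of the pathway was described from 5 lists with 32 genes and 40 probe sets outside the members. Of the 40, 29 had a higher mean in *Apc1* mutants, 4 were higher past the threshold (beside 6.82% of all probe sets), 1 was lower (beside 4.22%) and 35 did not pass. Their median difference was 0.23, against 0.71 for the members and -0.02 for all probe sets. These lists were drawn up with earlier results of these data known.

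Among the other ligands and processing proteases, *grk* was the only one of 5 genes called. *grk* encodes Gurken, a TGF-alpha-like ligand known for its role in the oocyte, and read 4.41, 4.87 and 4.76 in *Apc1* mutants, against 3.06, 3.79 and 3.29 in wild type. The difference was 1.30 (standard error 0.21, limma adjusted p = 0.00866), and it passed in all 6 fits with 1 array left out. The protease genes *ru* and *stet* and the inactive homologue *rho-5* read under 3 on all 6 arrays. The brightest of 3 probe sets of *rho-4*, another rhomboid gene, averaged 9.41 ± 0.13 in mutants and 8.98 ± 0.23 in wild type (SD, n = 3 each; difference 0.43, limma adjusted p = 0.123).

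In the Ras and MAP kinase core, 1 of 12 genes was higher, 1 was lower and 10 did not pass. *ave*, which encodes the SAM-domain protein Aveugle, was higher, at 4.93 ± 0.10 in *Apc1* mutants and 4.22 ± 0.10 in wild type (SD, n = 3 each; difference 0.71, limma adjusted p = 0.00902). *phl*, the Drosophila Raf kinase, was lower in all mutant arrays, at 3.96, 3.87 and 3.91, against 4.79, 4.77 and 4.68 in wild type (difference -0.83, standard error 0.10, limma adjusted p = 0.00265). Both passed in all 6 fits with 1 array left out. The adaptor *drk* (difference 0.42, limma adjusted p = 0.0523) and *Ras85D* (difference 0.49, limma adjusted p = 0.0698) fell just short. The kinase genes *Dsor1* (MEK) and *rl* (ERK) had differences of 0.18 and 0.27 (limma adjusted p = 0.491 and 0.3).

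Of 7 further negative regulators with 12 probe sets, *vap* and *Cbl* had 1 probe set each that was higher. *vap*, a Ras GTPase-activating protein, averaged 6.39 ± 0.17 in *Apc1* mutants and 5.47 ± 0.07 in wild type (SD, n = 3 each; difference 0.92, limma adjusted p = 0.0039). The bright probe set of *Cbl*, the ubiquitin ligase that sends the receptor to degradation, averaged 7.16 ± 0.06 in mutants and 6.66 ± 0.14 in wild type (SD, n = 3 each; difference 0.50, limma adjusted p = 0.0369), but it passed in 1 of the 6 fits with 1 array left out, the one without wild type replicate 2. The dim probe set of *Cbl* had a difference of -0.28 (limma adjusted p = 0.456), so the 2 did not agree. *Mkp3*, the MAP kinase phosphatase and another feedback gene, had differences of 0.21 in each of its 2 probe sets (limma adjusted p = 0.674 and 0.731), with a wild-type SD of 0.57 and 0.67.

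None of the 7 probe sets of other nuclear factors was called; at an unadjusted p under 0.05 the repressor genes *aop* (difference 0.25, limma adjusted p = 0.189) and *gro* (difference 0.34, limma adjusted p = 0.0998) and *edl* (difference 0.52, limma adjusted p = 0.0527), a regulator of Pointed and Yan, were higher. The repressor gene *cic*, which MAP kinase relieves in midgut stem cells, averaged 8.0 ± 0.04 in *Apc1* mutants and 8.03 ± 0.16 in wild type (SD, n = 3 each; limma adjusted p = 0.941). The cell cycle genes *stg* and *CycE*, which lie downstream of the pathway in these cells, read near the low end. *stg* averaged 1.84 ± 0.11 in mutants and 2.67 ± 1.23 in wild type (SD, n = 3 each; limma adjusted p = 0.39), where a single wild-type array, replicate 2, read 4.10 and the other wild-type arrays 2.03 and 1.90.

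**Figure D4:**
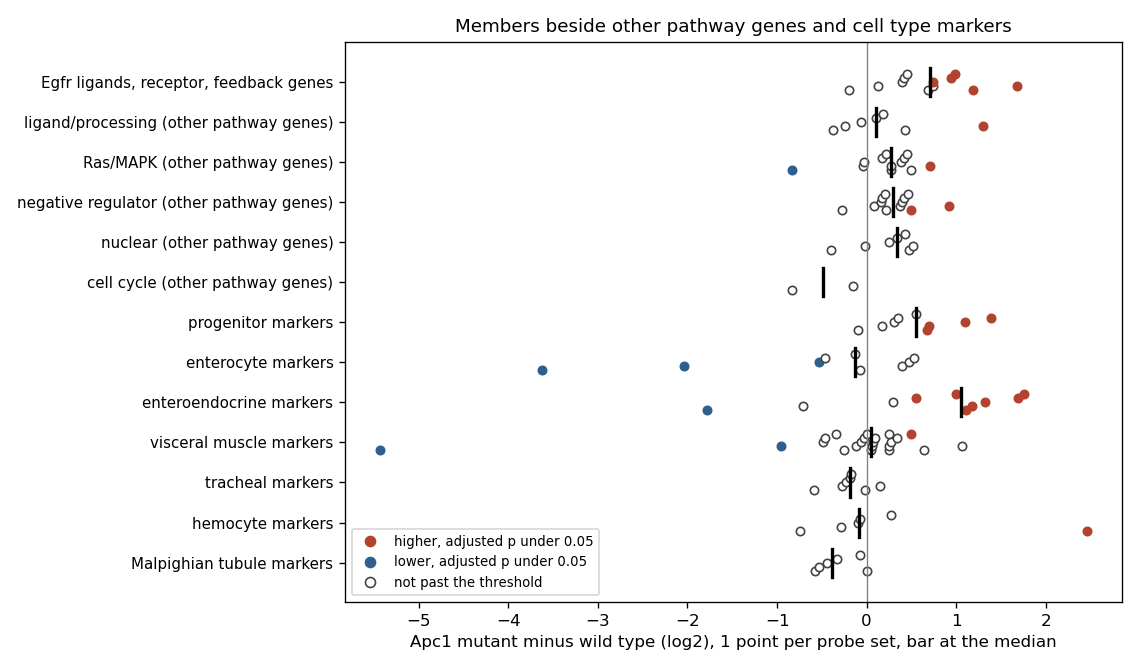
Difference between *Apc1* mutant and wild-type midguts on the log2 scale for each probe set of the members, of 5 lists of other pathway genes and of 7 lists of cell type markers; the bar is the median of each list, and filled points passed an adjusted p under 0.05 (red higher, blue lower). The median of the members, 0.71, lies between those of the progenitor markers (0.55) and the enteroendocrine markers (1.05).

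Among markers of the midgut epithelium, the progenitor and enteroendocrine lists had positive median differences and the enterocyte list a negative one. In RNA of whole midguts, a change in the number of cells of a type and a change in transcript per cell cannot be told apart. Of 9 probe sets of 7 progenitor genes, 4 were higher, none was lower and 5 did not pass, and the median difference was 0.55. The summed linear level of this list was between 228 and 229 on the *Apc1* mutant arrays and between 136 and 150 on the wild-type arrays. *esg*, the transcription factor that marks stem cells and enteroblasts, averaged 6.05 ± 0.02 in mutants and 4.95 ± 0.04 in wild type (SD, n = 3 each; difference 1.10, limma adjusted p = 0.000658), and of this list 1 of the 2 probe sets of *klu* read under 3 on all arrays. Of 10 enteroendocrine probe sets, 7 were higher, 1 was lower (*NPF*, difference -1.78) and 2 did not pass, with a median difference of 1.05. Their summed linear levels lay between 2235 and 2762 in mutants and between 1258 and 1405 in wild type. *Mip*, 1 of the 7 higher ones, read under 3 on all arrays. Of 9 enterocyte probe sets, 3 were lower, none was higher and 6 did not pass, with a median difference of -0.13 and summed levels between 6264 and 8564 in mutants and between 11608 and 13845 in wild type. The 3 lower ones were the digestive protease genes *alphaTry*, *betaTry* and *Jon65Ai* (differences -0.53, -2.04 and -3.62). The fate regulator *nub*, in 2 of its 3 probe sets (differences 0.53 and 0.40, limma adjusted p = 0.0854 and 0.167), and the myosin gene *Myo31DF* (difference 0.47, limma adjusted p = 0.0645) had positive differences without overlap that did not pass. The part of these cell types in the values of *aos*, *pnt*, *spi* and *vn* was not tested.

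Visceral muscle, the known source of *vn*, did not show a common shift. Of 22 probe sets of 12 muscle genes, 1 was higher, 2 were lower and 19 did not pass, and the median difference was 0.05. Summed linear levels lay between 9026 and 10368 in *Apc1* mutants and between 9687 and 11314 in wild type, and none of the 12 genes was at the low end. The higher one was a probe set of *Tm1* (difference 0.49), whose other probe sets did not pass. The lower probe sets were that of *Mlc2* and 1 of 4 of *Mef2*, which had a difference of -5.43 while the other 3 lay between -0.46 and 0.25. Without that probe set, a choice made after its values were seen, the summed levels were between 8993 and 10340 in mutants and between 8303 and 10159 in wild type. Tracheal markers (0 of 7 probe sets called; *btl*, *dys* and 1 of 2 probe sets of *vvl* under 3 on all arrays) and Malpighian tubule markers (0 of 6 called; at an unadjusted p under 0.05 also none in either list) gave no call. Of 6 hemocyte probe sets 1 was called, that of *Hml*, at 4.89 ± 0.35 in mutants and 2.44 ± 0.78 in wild type (SD, n = 3 each; limma adjusted p = 0.00623), whereas *eater* and 1 of the 2 probe sets of *Pxn* read under 3 on all arrays. Only 2 of the 6 had a higher mean in mutants, and the median difference of the hemocyte list was -0.08. The other probe set of *Pxn* was lower in mutants without overlap (difference -0.74, limma adjusted p = 0.0943).

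The genes whose values over the 6 arrays were most like those of the members were sought among all named probe sets, with Pearson's r as a description. For *aos* the closest was *CG16721* (r = 0.999), for *spi* *Rab14* (r = 0.9996), for *vn* *SecS* (r = 0.997), for *Egfr* *Mal-B2* (r = 0.991), and for the 2 probe sets of *pnt* *Deaf1* (r = 0.999) and *Patronin* (r = 0.998). With 6 points split by genotype, such values are common, and 276 probe sets had r over 0.95 with *aos*, 189 with *spi* and 128 with *vn*.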

How the data were processed

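RNA of whole midguts was hybridized to 6 arrays, 1 per sample, grouped by genotype as labelled. The authors deposited log2 values, 1 per probe set and array, made from the scans by RMA normalization and log2 transformation; the submitters' processing notes name RMA and MAS5 without a role, and the background correction is not given in the sources used here. The table's columns of the authors' own comparison (p-values, adjusted p-values, ratios and group summaries) were not used. After 183 Affymetrix controls were left out, 18769 probe sets were fitted with limma (version 3.58.1, R 4.3.3; lmFit, eBayes) and adjusted by Benjamini-Hochberg over all of them, with an adjusted p under 0.05 as the threshold. Probe sets were named by RefSeq accession (14363) or the deposited symbol (429), and 3977 have no name. All probe sets of the members were described, and genes of the lists were counted. Of the pathway lists, the genes called were named, with up to 4 others per list. Of the marker lists, only some of the genes called and some of those not called were named. *Uro*, *Best2*, *alphaTry*, *betaTry*, *Jon65Ai*, *nub*, *Myo31DF*, *NPF*, *Mlc2*, *Mef2*, *Tm1* and *Hml* come from the marker lists. *Amy-p* was matched to no probe set and not used. The members and lists were chosen with earlier results of these data known. Intervals are limma's 95% intervals. A summed linear level is the sum of 2 to the power of each log2 value. The number of arrays limits the precision, and with 3 arrays per genotype the smallest p of an exact permutation test on 1 gene is 0.1. The fit was tested on simulated data. Tables used Python 3.11.15, pandas 2.3.3 and numpy 2.4.6, and plots matplotlib 3.10.9. The alternatives were the brightest probe set or the mean of the probe sets per gene, centring on array medians, quantile normalization, a mean of at least 5, trend and robust estimation, array weights, the replicate number as a block, and each array left out.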

Additional observations from a re-analysis of the deposited data

How the results depend on the processing

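The 5 member probe sets called, all higher, became 3 after quantile normalization and between 3 and 5 with 1 array left out; *vn* and *spi* were the calls lost, at an adjusted p of 0.0609 and 0.0673 after quantile normalization, and *spi* also missed after centring on array medians (0.0535). It was 3 without any 1 of the *Apc1* mutant arrays or without wild type replicate 1. Over all probe sets 2072 were called, and between 1085 (without *Apc1* mutant replicate 3) and 1736 with 1 array left out; it was 1200 without *Apc1* mutant replicate 1 and 1281 without *Apc1* mutant replicate 2. Both probe sets of *pnt* kept their call in every setting in which they were tested, and so did *aos*. The difference of *Krn* turned to -0.14 without wild type replicate 2 (range -0.14 to 0.29 with 1 array left out), and that of *Apc*, 0.14, ranged from -0.10 to 0.32, with -0.09 without *Apc1* mutant replicate 3 and -0.10 without wild type replicate 2. The probe set of *ATPsynCF6* kept its call in 2 of the 6 fits with 1 array left out. Replicate numbers are shared between the genotypes, and deviations of same-numbered arrays from their group means correlated at 0.13, 0.20 and 0.02. *Apc1* mutant replicates 1 and 2 each correlated best with the same-numbered wild-type array, whereas *Apc1* mutant replicate 3 correlated best with wild type replicate 1 (0.12). These values do not settle whether the numbers pair the samples, so the main fit has no block and the block is an alternative. With the replicate block, 5 member probe sets and 1849 of all probe sets were called, *Cbl* lost its call (adjusted p = 0.0738), and no member's call changed. *Cbl* also lost it after quantile normalization (0.0694) and when its probe sets were averaged (difference 0.11, adjusted p = 0.612). Values of *vn*, *kek1* and *stg* lie near or under the array medians, where signal over background limits what a fold can say.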
